A study of Mus musculus with 16 samples.

Results

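The 46 genes described here are Myc and 45 genes whose proteins build ribosomes. They were chosen by name from the known steps of the process, with earlier results of these data known. Counts over them are therefore no independent test. All 46 of them were measured, out of 31274 genes in the deposited table, and all 46 passed the minimum of a mean of 1 FPKM over the 16 libraries, as did 15408 genes in all. FPKM, fragments per kilobase of transcript scaled to the library's mapped fragments, was the deposited unit, so levels of different genes can be set side by side per length. The libraries came from whole uteri of mice carrying PgrcrePgrALsL/+ (PRA) or PgrcrePgrBLsL/+ (PRB), alleles that let Cre recombinase switch on extra progesterone receptor A or B in cells that use the Pgr promoter. The animals were ovariectomized and rested for 2 weeks, then given progesterone (P4) or the oil it is dissolved in, and the uterus was taken after 6 hours. The groups were PRA with P4, PRA with oil, PRB with P4 and PRB with oil, with 4 libraries each. All animals stayed with their littermates up to 8 weeks of age, and all 4 groups carry Pgr-Cre and a receptor transgene, so there is no group without extra receptor among them. The labels do not say whether a library is 1 animal, so the p-values measure the spread between these libraries. Another protocol field of the same samples describes mating and dissection on day 4 of pregnancy, which is at odds with ovariectomy, and the groups are described here by their titles and treatment labels.

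As background, a ribosome is made of 2 subunits, and most of its RNA is cut from a single long transcript that RNA polymerase I makes in the nucleolus. Box C/D and box H/ACA particles, each a small nucleolar RNA (snoRNA) with its proteins, chemically mark that transcript at chosen bases. The small subunit processome then folds and cuts the part that becomes 18S RNA, other factors assemble the large subunit around 28S, 5.8S and 5S RNA, and late factors finish both subunits as they leave the nucleus. The transcription factor MYC switches on many of these genes by binding the E-box, CACGTG, together with its partner MAX. Growing cells make more ribosomes, and the uterus under ovarian hormones is a textbook case of hormone-driven tissue growth.

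Progesterone was followed within 6 hours by higher mRNA levels of nearly the whole set in both strains. In PRA uteri 45 of the 46 genes rose and none fell, whereas 36.6% of all tested genes rose and 33.2% fell, 69.8% in either direction (limma with Benjamini-Hochberg adjustment over all 15408 genes, adjusted p under 0.05). In PRB uteri all 46 rose, against 36.2% of all tested genes that rose and 32.9% that fell, 69.1% in either direction. The median log2 change of the 46 was 1.22 in PRA uteri and 1.14 in PRB uteri, which are 2.33-fold and 2.20-fold, while the median over all tested genes was 0.01 in PRA and 0 in PRB. Changes are on the log2(FPKM + 1) scale, which understates those of low genes. An at least 2-fold rise, a log2 change of 1 or more that also passed the test, was found for 32 of the 46 genes in PRA uteri, where 6.94% of all genes reached it. In PRB uteri 28 of the 46 reached it, and 7.17% of all genes did.

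The sum of the 46 levels showed the same difference library by library. It was 2634 ± 101 FPKM in PRA uteri with P4 and 1175 ± 68.4 FPKM in PRA uteri with oil, and 2566 ± 165 FPKM in PRB uteri with P4 and 1188 ± 61.7 FPKM in PRB uteri with oil (mean ± SD, n = 4 each). The lowest P4 library of either strain, at 2365 FPKM, lay well above the highest oil library, at 1281 FPKM. As a share of all FPKM in a library the set made up 0.432 to 0.473% in PRA with P4 and 0.217 to 0.245% in PRA with oil, and 0.409 to 0.466% in PRB with P4 and 0.221 to 0.247% in PRB with oil. Gene by gene, the 4 P4 libraries were all above the 4 oil libraries for 45 genes in PRA, where 35% of all tested genes separated that way, and for 46 genes in PRB, where 32.6% did. None of the 46 separated the other way, as 31.2% of all genes did in PRA and 28.5% in PRB. A whole uterus holds many cell types, so more cells of a type that uses these genes and more of the mRNA per cell cannot be told apart.

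**Figure D1:**
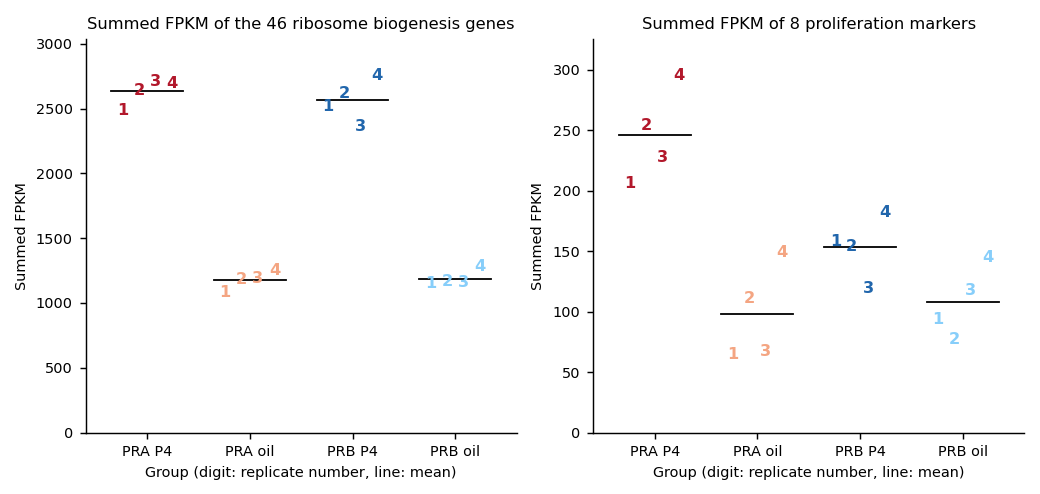
Summed FPKM of the 46 ribosome biogenesis genes in each of the 16 libraries, by group, with a line at the mean of the 4 libraries of each group. A second panel shows the summed FPKM of the proliferation markers in the same way. For the 46 genes the P4 libraries lie between 2365 and 2758 FPKM and the oil libraries between 1083 and 1281 FPKM in both strains.

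Facts of the libraries that bear on these values were as follows. The densest cluster of low values, as FPKM times transcript length, placed the depth at about 53000000 to 64700000 fragments per library. The search was confined to a narrow band set beforehand, so a depth outside that band could not be found. Counting error was not measured. Total FPKM was 572846 to 594092 in PRA with P4 and 499748 to 528785 in PRA with oil, and 578463 to 595748 in PRB with P4 and 507931 to 520113 in PRB with oil, and upper quartiles were 14.5 to 15.1 FPKM. Setting every library to the same total moved the median change of all genes to -0.14 in PRA and -0.17 in PRB, and the split of calls over all genes moved to 4300 higher and 6756 lower in PRA, and 4080 and 6929 in PRB, against 5646 and 5114 in PRA and 5577 and 5070 in PRB as deposited. The 46 genes then still had 45 that rose in each strain and median changes of 1.05 and 0.96. Pgr itself, the gene the alleles add to, was at 73.9 ± 1.80 FPKM in PRA with P4, 64.9 ± 5.52 in PRA with oil, 112 ± 22.3 in PRB with P4 and 83.5 ± 4.49 in PRB with oil (mean ± SD, n = 4), and gene-level FPKM does not tell the receptor forms apart. In PRB P4 replicate 3 several of these values stood apart: Pgr was at 78.5 FPKM, against 121 to 126 in the other 3 libraries of the group, and 7 leukocyte markers summed to 416 FPKM, against 165 to 193. The same library had the lowest sum of the 46 genes with P4, 2365 FPKM, and without it 46 genes still rose in PRB, with a median change of 1.15. Position codes in the labels put PRA and PRB in different rows and oil and P4 at different positions, so position cannot be told apart from strain or treatment.

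Markers of the tissue were present in every library, and of 67 marker genes of uterine and neighbouring cell types none was at 0 in all libraries, while Cyp11a1 of steroid-making cells and Myh4 of skeletal muscle stayed under 1 FPKM. The 10 epithelial markers summed to 1408 ± 147 FPKM in PRA with P4 and 1136 ± 73.1 in PRA with oil, and to 1669.5 ± 112 in PRB with P4 and 1163 ± 51.5 in PRB with oil (mean ± SD, n = 4). Single epithelial markers went both ways, with 3 that rose and 3 that fell in PRA and 3 and 1 in PRB, and median changes of 0.07 and 0.09. As background for all marker counts here, 36.6% of all tested genes rose and 33.2% fell in PRA, and 36.2% and 32.9% in PRB. The epithelial counts in PRA were near those shares. The tight junction gene Cldn3 made up most of the sum's difference, at 379 ± 26.0 FPKM in PRA with P4 and 158 ± 19.6 in PRA with oil, and 589 ± 38.1 in PRB with P4 and 179 ± 25.0 in PRB with oil, while Elf3 fell in both strains and Epcam and Krt18 fell in PRA. The 8 markers of proliferating cells summed to 206 to 296 FPKM in PRA with P4 and 64.3 to 149 in PRA with oil, and to 119 to 182 in PRB with P4 and 77.2 to 145 in PRB with oil, so they overlapped between treatments only in PRB. Of these 8, 5 rose with P4 in PRA and 2 in PRB, with median changes of 1.31 and 0.10. Other lists did not move alike. Of 4 mesothelial markers 2 fell in PRA and none passed in PRB, with medians of -0.80 and -0.29. Of 7 smooth muscle markers 2 rose and 1 fell in PRA, and 1 rose and 2 fell in PRB. None of 4 adipose markers passed in either strain, with medians of -0.87 and -0.50. Of 8 stromal markers 4 rose and 3 fell in PRA and 3 rose and 3 fell in PRB. Of 6 endothelial markers 3 fell and none rose in PRA, and 1, Cldn5, fell in PRB, with medians of -0.23 and 0.03. Of 7 leukocyte markers 1 rose and 1 fell in PRA and 1 rose in PRB. The gland marker Sox17 rose in both strains, as did Spink3 in PRB, the ovarian marker Inha fell in both, and the muscle actin gene Acta1 rose in PRA. The markers that passed moved with the treatment alongside the 46 genes, and their part in the result was not tested.

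Of the 46 genes, 40 have an entry in the RefSeq promoter table of build GRCm38.p6, which spans 250 bases before to 50 after the annotated start. The E-box CACGTG, which reads the same on both strands, was found for 10 of those 40 genes (25%). A gene was counted if any of its windows held the motif. The E-box was found for 17 of 79 other ribosome biogenesis genes (21.5%) and 6 of 58 cytosolic ribosomal protein genes (10.3%). It was found for 11.6% of the tested genes with an entry and for 8.09% of all 27025 genes with an entry. In 8 of the 10 genes it lay within the first 50 bases after the start, and in Nop2 and Imp4 it lay 60 and 121 bases before it. The E-boxes are shown because MYC is the member of the set that binds this motif. They are printed on the gene's strand with CACGTG in capitals and up to 12 bases on either side, beginning with the one of the 10 genes that rose most in PRA uteri and ending with the one that rose least.
Pno1 (chr11:17211540-17211564, - strand): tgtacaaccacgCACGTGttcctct
Ltv1 (chr10:13193092-13193121, - strand): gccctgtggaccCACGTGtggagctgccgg
Tsr1 (chr11:74898092-74898121, + strand): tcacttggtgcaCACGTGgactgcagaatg
Grwd1 (chr7:45830740-45830767, - strand): gggccggagtcgCACGTGtgaaaccgga
Nop2 (chr6:125131811-125131840, + strand): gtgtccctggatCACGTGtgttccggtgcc
Wdr43 (chr17:71616220-71616249, + strand): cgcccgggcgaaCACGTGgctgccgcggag
Utp20 (chr10:88826765-88826789, - strand): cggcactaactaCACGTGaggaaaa
Mybbp1a (chr11:72441355-72441376, + strand): gtcttctgagccCACGTGtttg
Pes1 (chr11:3963965-3963994, + strand): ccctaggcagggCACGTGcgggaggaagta
Imp4 (chr1:34439696-34439725, + strand): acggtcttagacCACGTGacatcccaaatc
The 10 genes with an E-box had a median log2 change of 1.34 in both strains, and the 30 without had 1.15 in PRA and 1.05 in PRB. In PRA the changes ran from 0.68 to 2.00 with an E-box and from 0.08 to 2.16 without. In PRB they ran from 0.82 to 1.96 with and from 0.26 to 2.24 without, and the difference was not tested. Rrp12, with the largest change of the 46 genes, has no entry and is in neither group. The motif is a match of letters and not a measured binding site. The progesterone receptor half-site pair ACANNNTGT was in the windows of Rrp9 and Rrp1b, which is 5% of the 40 genes against 7.9% of all genes with an entry. Both motifs were searched on both strands, and no gene of the set had both.

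Myc, the transcription factor, rose in both strains to about 2 times its oil level. In PRA uteri it was at 70.7, 83.7, 86.1 and 82.6 FPKM with P4, against 43.7, 34.0, 44.2 and 35.7 FPKM with oil. In PRB uteri it was at 78.0, 90.8, 73.5 and 104 FPKM with P4, against 41.9, 46.6, 38.6 and 56.9 FPKM with oil. Every P4 library was above every oil library of its strain, with the narrowest gap in PRB, where oil replicate 4 was the highest oil library. The log2 change was 1.02 in PRA (SE 0.13, adjusted p = 6.33e-06) and 0.90 in PRB (SE 0.13, adjusted p = 2.29e-05), and Myc had the widest standard error of the 46 genes.

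RNA polymerase I, the enzyme that transcribes the ribosomal RNA precursor, was represented by 3 subunits, and all 3 rose in each strain. Polr1a, the largest subunit, was at 24.7, 25.5, 26.7 and 27.4 FPKM with P4, against 11.7, 11.4, 11.4 and 12.8 FPKM with oil in PRA uteri. In PRB uteri Polr1a was at 21.2, 23.4, 22.4 and 26.0 FPKM with P4, against 11.5, 12.1, 12.4 and 13.2 FPKM with oil. Its oil libraries were tightly grouped in both strains, and its log2 change was 1.08 in PRA and 0.87 in PRB (adjusted p = 2.42e-09 and 1.76e-08). Polr1b, the second-largest subunit, was at 27.9, 26.7, 27.8 and 26.9 FPKM with P4, against 13.8, 14.0, 15.8 and 14.8 FPKM with oil in PRA, a log2 change of 0.86 (adjusted p = 6.63e-09). In PRB uteri Polr1b was at 27.1, 27.5, 25.2 and 30.1 FPKM with P4, against 14.8, 14.9, 13.9 and 15.9 FPKM with oil, a change of 0.84 (adjusted p = 8.03e-09). Polr1e, a smaller subunit needed for efficient initiation and elongation, had the lowest mean level of the 46 genes and the largest change of the 3. It was at 7.22, 6.94, 8.14 and 8.04 FPKM with P4, against 2.14, 2.15, 2.26 and 2.81 FPKM with oil in PRA, and at 6.57, 7.74, 6.76 and 7.43 FPKM with P4, against 2.31, 2.12, 2.18 and 2.81 FPKM with oil in PRB. Its log2 change was 1.36 in PRA and 1.28 in PRB (adjusted p = 5e-09 and 8.77e-09).

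Of 13 other tested genes of the polymerase I machinery, 9 rose and 1 fell in PRA, and 10 rose and 2 fell in PRB. Over all tested genes 36.6% rose and 33.2% fell in PRA, 69.8% in either direction. In PRB 36.2% rose and 32.9% fell, 69.1% in either direction. Cd3eap, a polymerase I subunit, had the largest rise, with log2 changes of 1.23 in PRA and 1.32 in PRB. Ttf1, the factor that ends polymerase I transcription, fell by 0.19 in PRA and by 0.15 in PRB on the log2 scale (adjusted p = 0.0166 and 0.0496).

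The box C/D proteins form the particle that adds methyl groups to ribosomal RNA, and all 3 rose by more than 2-fold in both strains. Fbl, fibrillarin, the methyltransferase itself, was at 68.0, 77.1, 80.3 and 82.4 FPKM with P4, against 26.6, 30.5, 28.8 and 34.6 FPKM with oil in PRA uteri. In PRB uteri Fbl was at 64.7, 68.4, 64.0 and 74.7 FPKM with P4, against 29.8, 28.5, 31.5 and 34.3 FPKM with oil. The log2 changes of Fbl were 1.33 and 1.11 in the 2 strains (adjusted p = 5.2e-09 in PRA and 2.84e-08 in PRB). Nop56 and Nop58 are the paired core proteins that hold the methyltransferase on the guide RNA. Nop56 was at 135, 138, 147 and 140.0 FPKM with P4, against 43.4, 51.7, 45.5 and 57.8 FPKM with oil in PRA, and at 119, 134, 115 and 134 FPKM with P4, against 45.4, 45.6, 46.9 and 57.6 FPKM with oil in PRB. Nop58 was at 72.0, 81.5, 81.7 and 84.1 FPKM with P4, against 21.3, 25.4, 24.2 and 28.8 FPKM with oil in PRA, and at 78.8, 73.8, 73.4 and 80.0 FPKM with P4, against 24.4, 24.7, 25.9 and 28.8 FPKM with oil in PRB. No P4 library of either gene came near an oil library, and the changes were 1.49 and 1.34 for Nop56 and 1.64 and 1.53 for Nop58 (PRA and PRB, adjusted p at most 1.06e-08).

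The box H/ACA particle turns chosen uridines into pseudouridine, and its 4 proteins rose in both strains by unequal amounts. Dkc1, dyskerin, the pseudouridine synthase, averaged 34.3 ± 1.80 FPKM in PRA with P4 and 16.2 ± 1.04 in PRA with oil, and 30.8 ± 1.58 in PRB with P4 and 15.9 ± 0.868 in PRB with oil (mean ± SD, n = 4). The RNA-binding subunit Nhp2 and the subunit Gar1 had changes of 1.35 and 1.09 in PRA and 1.27 and 0.94 in PRB, and Dkc1 had 1.04 and 0.91. Nop10, the smallest of the 4 proteins, moved least. It was at 85.4, 95.1, 86.5 and 90.1 FPKM with P4, against 58.3, 68.1, 68.2 and 66.8 FPKM with oil in PRA, and at 81.5, 88.5, 89.6 and 83.7 FPKM with P4, against 63.0, 62.4, 63.2 and 69.4 FPKM with oil in PRB. The groups did not overlap, and the log2 change was 0.45 in PRA and 0.41 in PRB (adjusted p = 6.23e-06 and 1.56e-05).

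The 6 nucleolar chaperones and scaffolds include the most abundant mRNA of the set and some of its strongest responses. Npm1, nucleophosmin, a chaperone that shuttles between nucleolus and cytoplasm, had the highest mean level of the 46 genes. It was at 214, 237, 235 and 258 FPKM with P4, against 129, 152, 142 and 148 FPKM with oil in PRA, and at 212, 205, 198 and 220.0 FPKM with P4, against 150.0, 138, 153 and 152 FPKM with oil in PRB. That is a log2 change of 0.72 in PRA and 0.49 in PRB (adjusted p = 1.33e-07 and 6.86e-06), below the median of the set. For Npm1, 8 genes or pseudogenes at least 90% identical over 300 bases or more are annotated, and they could share some of its reads. Ncl, nucleolin, which binds nascent ribosomal RNA, was at 105, 117, 121 and 124 FPKM with P4, against 46.8, 50.6, 49.5 and 51.5 FPKM with oil in PRA. In PRB uteri Ncl was at 106, 99.3, 93.8 and 113 FPKM with P4, against 47.8, 49.1, 49.6 and 51.0 FPKM with oil. The mean with P4 was more than 2 times the mean with oil in both strains, with log2 changes of 1.22 and 1.04 (adjusted p = 6.39e-10 in PRA and 2.05e-09 in PRB). Nolc1, a phosphoprotein that carries snoRNA particles into the nucleolus, was at 61.9, 64.4, 66.6 and 64.1 FPKM with P4, against 20.4, 23.9, 22.3 and 26.3 FPKM with oil in PRA, and at 71.3, 72.7, 60.2 and 76.5 FPKM with P4, against 23.2, 23.5, 23.1 and 27.7 FPKM with oil in PRB. Its changes were 1.43 and 1.48 (adjusted p = 2.49e-09 in PRA and 1.79e-09 in PRB).

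Ddx21, an RNA helicase that couples polymerase I transcription to processing, was among the 3 largest responses of the set in PRA and among the 4 largest in PRB. In PRA it was at 91.8, 102, 105 and 105 FPKM with P4, against 19.1, 22.8, 21.4 and 27.6 FPKM with oil. In PRB it was at 92.0, 91.5, 91.8 and 104 FPKM with P4, against 23.9, 20.9, 23.0 and 27.9 FPKM with oil. The lowest P4 library was more than 3 times the highest oil library of the same strain, and the log2 change was 2.11 in PRA and 1.95 in PRB (SE 0.10, adjusted p = 4.93e-10 and 7.4e-10). The other 2, the transcription cofactor Mybbp1a and the nucleolar GTPase Gnl3 (nucleostemin), changed by 1.08 and 1.58 in PRA and by 1.04 and 1.59 in PRB.

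**Figure D2:**
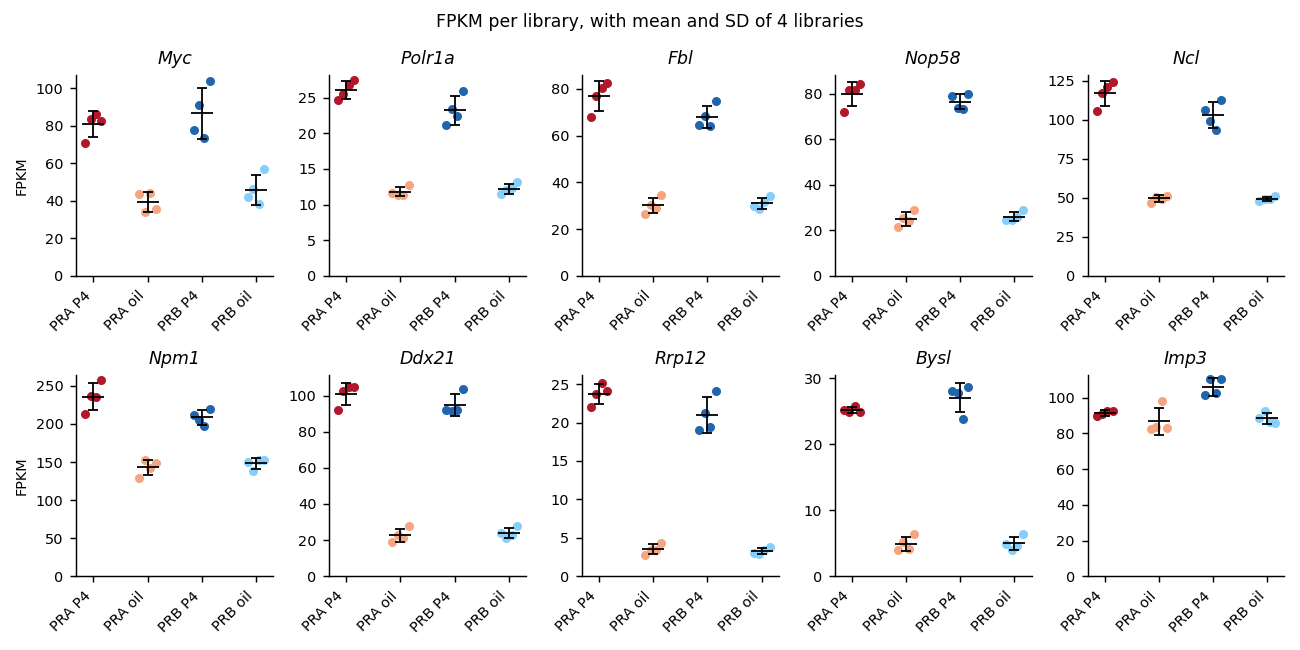
FPKM of selected genes of the set in each library, by group, with group means. For each gene shown the P4 libraries of a strain lie above its oil libraries, except Imp3 in PRA, whose oil replicate 3, at 97.9 FPKM, is above all 4 P4 libraries.

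The small subunit processome gave both ends of the range of responses. Rrp12, a HEAT-repeat protein of small subunit precursors that in yeast also takes part in subunit export, had the largest change of the 46 genes in both strains. It was at 22.0, 23.7, 25.1 and 24.2 FPKM with P4, against 2.73, 3.46, 3.45 and 4.36 FPKM with oil in PRA, and at 19.1, 21.2, 19.5 and 24.2 FPKM with P4, against 2.98, 2.94, 3.35 and 3.77 FPKM with oil in PRB. The log2 change was 2.47 in PRA and 2.37 in PRB, 5.53-fold and 5.16-fold on the FPKM + 1 scale (adjusted p = 1.74e-10 and 1.8e-10). Imp3, which with Imp4 and Mphosph10 joins U3 snoRNA to the precursor, had the smallest. In PRA it was at 89.8, 90.6, 92.6 and 92.6 FPKM with P4, against 82.6, 83.3, 97.9 and 83.1 FPKM with oil. In PRB it was at 101, 111, 102 and 110.2 FPKM with P4, against 88.8, 92.5, 86.3 and 86.1 FPKM with oil. The groups overlapped in PRA because oil replicate 3 was the highest library of that strain, and the change of 0.08 did not pass the test there (95% interval -0.04 to 0.19, adjusted p = 0.203). Imp3 had the second-highest mean level of the set. Without that library its change in PRA was 0.14 and passed the test (adjusted p = 0.0102), and in PRB it rose by 0.26 (adjusted p = 0.000515), a call that was lost with equal totals (0.07, adjusted p = 0.213) and under quantile normalization (-0.022, adjusted p = 0.718). In PRA the direction of Imp3 also turned with the scaling, to -0.16 under quantile normalization (adjusted p = 0.00889) and -0.096 with equal totals (adjusted p = 0.0946).

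Between these 2 extremes lay the other 8 processome genes, all of which rose in both strains. Wdr43, Utp15 and Heatr1, members of the early subcomplex that is loaded on the nascent transcript, had log2 changes of 1.30, 0.72 and 1.71 in PRA and of 1.19, 0.85 and 1.65 in PRB. Rrp9, a U3 snoRNA protein, had 1.48 and 1.52. Nop14 and Noc4l, which bind each other, had 0.80 and 1.11 in PRA, and 0.71 and 1.04 in PRB. Imp4 had 0.68 in PRA and 0.82 in PRB. Utp20, a very large scaffold protein, was at 11.9, 14.1, 15.1 and 14.7 FPKM with P4, against 5.17, 5.58, 5.25 and 6.24 FPKM with oil in PRA, and at 10.7, 10.5, 12.9 and 12.8 FPKM with P4, against 5.73, 5.56, 5.78 and 5.89 FPKM with oil in PRB. Its changes were 1.19 and 0.91 (adjusted p = 1.38e-08 and 1.97e-07). Of 35 other tested processome genes, 34 rose and none fell in each strain, led by Mphosph10 (1.83 in PRA and 1.78 in PRB) and Wdr46 (1.55 and 1.55). Among all tested genes 36.6% rose and 33.2% fell in PRA, and 36.2% and 32.9% in PRB.

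The late factors of the small subunit had the highest median change of any role group, 1.76 in PRA and 1.73 in PRB over 5 genes. Bysl, bystin, which stays on the precursor until late nuclear steps, was at 25.2, 24.8, 25.7 and 24.9 FPKM with P4, against 4.01, 5.11, 4.20 and 6.35 FPKM with oil in PRA, and at 28.0, 27.7, 23.8 and 28.6 FPKM with P4, against 4.85, 4.03, 4.66 and 6.37 FPKM with oil in PRB. Its change of 2.16 and 2.24 was the second-largest of the set in each strain (adjusted p = 1.77e-09 in PRA and 1.24e-09 in PRB). Pno1, an RNA-binding protein next to the site of the last cut, was at 52.3, 57.9, 57.8 and 58.1 FPKM with P4, against 10.9, 14.4, 13.0 and 15.6 FPKM with oil in PRA. In PRB uteri Pno1 was at 51.9, 53.9, 52.5 and 54.6 FPKM with P4, against 13.3, 11.6, 12.5 and 14.7 FPKM with oil. It changed by 2.00 in PRA and 1.96 in PRB (adjusted p = 2.62e-10 and 2.29e-10). Nob1, the nuclease that makes that cut and frees the end of 18S RNA, had a smaller change than Pno1 in both strains. Nob1 was at 46.9, 50.3, 54.0 and 51.2 FPKM with P4, against 32.7, 34.3, 36.0 and 33.8 FPKM with oil in PRA, and at 55.9, 54.4, 46.9 and 57.9 FPKM with P4, against 32.8, 35.9, 31.0 and 36.6 FPKM with oil in PRB, with changes of 0.55 and 0.64 (adjusted p = 4.83e-06 and 1.03e-06). Ltv1, which helps the small subunit leave the nucleus, and Tsr1, a GTPase-like factor that keeps it from starting translation early, had 1.76 and 1.63 in PRA and 1.73 and 1.61 in PRB.

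All 14 large subunit assembly genes rose in both strains, with medians of 1.20 in PRA and 1.19 in PRB. Rrs1, which in yeast helps bring the 5S particle into the precursor, was at 99.4, 99.7, 110.1 and 100.5 FPKM with P4, against 25.3, 27.4, 28.4 and 33.3 FPKM with oil in PRA. In PRB uteri Rrs1 was at 91.9, 97.7, 77.9 and 107 FPKM with P4, against 19.5, 23.9, 24.8 and 29.2 FPKM with oil. It had the largest change of the 14 genes, 1.81 in PRA and 1.90 in PRB (adjusted p = 5.48e-09 and 3.28e-09). The PeBoW proteins Pes1, Bop1 and Wdr12, which act as a complex in 28S and 5.8S RNA maturation, changed by 0.82, 1.62 and 1.28 in PRA and by 0.82, 1.57 and 1.16 in PRB. Wdr12 had the lowest level of the 3, at 13.1 ± 1.04 FPKM in PRA with P4 and 4.81 ± 0.486 in PRA with oil, and at 12.1 ± 0.735 in PRB with P4 and 4.87 ± 0.362 in PRB with oil (mean ± SD, n = 4). Grwd1, a chaperone of ribosomal protein RPL3, and Mrto4, which holds the place of the ribosomal stalk, changed by 1.58 and 1.70 in PRA and by 1.55 and 1.64 in PRB. Nop2, a methyltransferase of 28S RNA, had 1.38 and 1.48, and Nip7, an assembly factor, had 1.22 and 1.21 (PRA and PRB).

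The remaining large subunit factors had smaller or middling changes. Noc2l and Noc3l, relatives of yeast factors that travel with the precursor through the nucleus, had 0.79 and 0.94 in PRA and 0.89 and 0.92 in PRB. Ppan, a relative of yeast Ssf1, was at 24.1, 23.7, 23.7 and 21.4 FPKM with P4, against 8.33, 8.86, 9.83 and 11.9 FPKM with oil in PRA, and at 27.2, 35.1, 22.2 and 30.4 FPKM with P4, against 12.3, 9.27, 10.3 and 9.70 FPKM with oil in PRB, with changes of 1.19 and 1.37 (adjusted p = 1.04e-06 and 2.3e-07). Its 4 libraries of PRB with P4 were spread widely, and replicate 3 was the lowest. Nop16 had 0.92 in PRA and 1.05 in PRB. Ebna1bp2, a relative of yeast Ebp2, was at 36.4, 40.6, 41.3 and 40.5 FPKM with P4, against 23.2, 23.9, 24.9 and 22.4 FPKM with oil in PRA, and at 36.7, 39.8, 35.3 and 40.1 FPKM with P4, against 21.6, 25.4, 20.3 and 24.3 FPKM with oil in PRB, with changes of 0.73 and 0.71. Rrp1b, which also binds chromatin and protein phosphatase 1, was at 24.6, 22.8, 24.3 and 23.7 FPKM with P4, against 13.7, 14.1, 14.4 and 14.8 FPKM with oil in PRA, a change of 0.71, and it changed by 0.74 in PRB. Of 40 other tested large subunit genes, 37 rose in each strain, and 2 fell in PRA and 1 in PRB. Among all tested genes 36.6% rose and 33.2% fell in PRA, and 36.2% and 32.9% in PRB. Urb1 led with 1.61 in PRA and 1.79 in PRB, and Gltscr2, a 60S assembly factor also known as NOP53, fell by 0.69 in PRA and by 0.46 in PRB on the log2 scale.

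**Figure D3:**
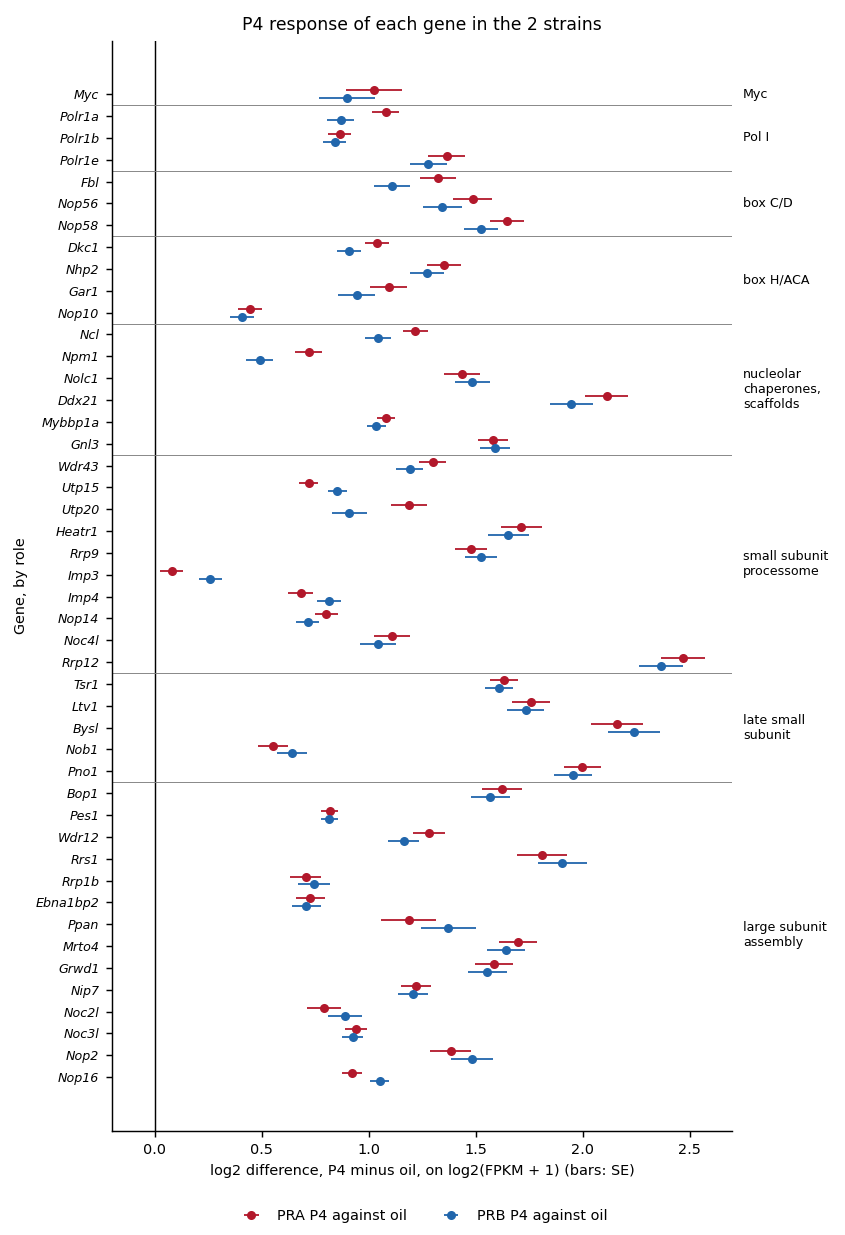
Log2 change of each of the 46 genes, P4 against oil, in PRA and PRB uteri, arranged by role. Bars show the standard error from the limma fit and are narrower than 95% confidence intervals. Points run from Imp3, at 0.08 in PRA and 0.26 in PRB, to Rrp12, at 2.47 in PRA and 2.37 in PRB.

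The order of the 46 responses was nearly the same in both strains, which share no library in these contrasts. Across genes the log2 changes in PRB and PRA had a Pearson correlation of 0.973 and a Spearman correlation of 0.975 (n = 46 genes, which are not independent replicates). The Pearson correlation of a gene's mean level with its change was -0.17 in PRA and -0.18 in PRB. The genes lie on 17 chromosomes, and 8 of them carry 23 annotated snoRNA genes within their span on the same strand (build GRCm38), among them Nop56 with 5, Nop58 with 4 and Ncl, Gnl3 and Wdr43 with 3 each. As background, most vertebrate snoRNAs are cut from introns of such host genes.

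**Figure D4:**
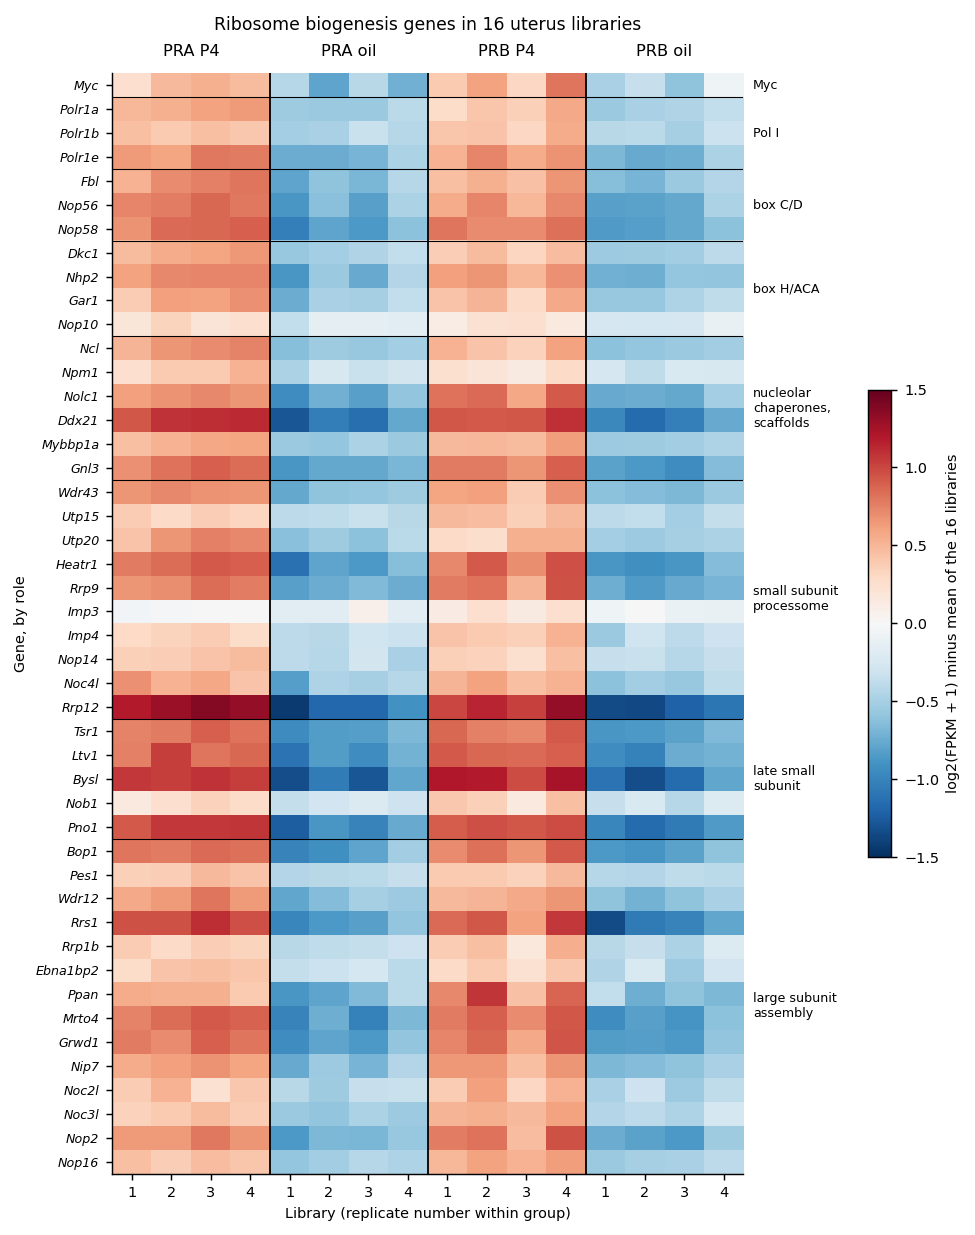
Heatmap of the 46 genes by library, as log2(FPKM + 1) minus the gene's mean over the 16 libraries, with genes arranged by role and libraries by group. The P4 columns of both strains are above the mean for nearly every gene and the oil columns below it, while Imp3 shows little contrast.

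Between strains few genes of the set differed. With P4, Imp3 was the only one of the 46 genes to pass the test, higher in PRB uteri by 0.21 on the log2 scale (adjusted p = 0.0159), and none was lower, whereas 7.75% of all tested genes were higher and 8.29% lower. Imp3 stood at 106 ± 5.04 FPKM in PRB with P4 and 91.4 ± 1.44 in PRA with P4 (mean ± SD, n = 4), and the libraries did not overlap. Nonoverlapping levels were also seen for Nop16 and Noc3l, higher in PRB, and for Nop56, lower in PRB, at backgrounds of 9.23% of all genes for higher and 10.9% for lower, and 16% of all genes passed the test in either direction. Nop16 was at 47.8, 51.4, 48.8 and 52.6 FPKM in PRB with P4, against 46.1, 43.7, 46.5 and 45.1 FPKM in PRA with P4 (log2 difference 0.14, adjusted p = 0.0529). Noc3l was at 16.4, 16.5, 16.1 and 17.5 FPKM in PRB with P4, against 14.4, 14.9, 15.9 and 14.8 FPKM in PRA with P4 (0.14, adjusted p = 0.0803). The median difference over the 46 genes was -0.03.

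Single libraries moved these counts. Without PRB P4 replicate 3, 3 genes were higher in PRB with P4 (Imp3, Ppan and Utp15) and Utp20 was lower, and without PRA P4 replicate 1, Imp3 was higher and 4 genes were lower (Ncl, Npm1, Dkc1 and Utp20). Without PRB P4 replicate 4, Imp3 was higher and Polr1a and Ncl were lower, and without PRB P4 replicate 1, PRB oil replicate 4 or PRA oil replicate 1, Nop16 was higher beside Imp3. With all libraries Utp20 had a difference of -0.24 (adjusted p = 0.069) and Ppan of 0.28 (adjusted p = 0.157). For 45 of the 46 genes the 95% interval of the PRB minus PRA difference with P4 lay within 0.5 either way, the exception being Ppan, at 0.00 to 0.55.

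With oil, no gene of the set passed the test between strains, and 0.117% of all tested genes did (0.0389% higher and 0.0779% lower in PRB). At an unadjusted p under 0.05 there was 1 of the 46 genes, while 5.21% of all tested genes were at that level. That gene was Noc3l, at 7.98, 8.27, 7.79 and 9.11 FPKM in PRB with oil, against 7.25, 7.03, 7.70 and 7.35 FPKM in PRA with oil (0.15, adjusted p = 0.597). It was also the only gene of the 46 whose oil libraries did not overlap between strains, while 1.25% of all genes were higher in PRB without overlap and 2.14% lower. The median difference was 0.01, and all 46 intervals lay within 0.5 either way.

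The difference between the 2 responses to P4, PRB minus PRA, was tested directly and passed for none of the 46 genes, against 2.28% of all tested genes, 1.47% with a larger and 0.811% with a smaller change in PRB (limma interaction term). At an unadjusted p under 0.05 there were 4 of the 46 genes (Polr1a, Npm1, Utp20 and Imp3), while 16.5% of all tested genes were at that level. The differences ran between -0.28 for Utp20 (95% interval -0.53 to -0.03, adjusted p = 0.253) and 0.19 for Ppan (-0.20 to 0.57, adjusted p = 0.66), with a median of -0.04. For 43 of the 46 genes the interval lay within 0.5 either way, which bounds how far the strains could differ for these genes but does not show them equal. Proliferation markers had a median difference of -1.24, and none of those 8 passed the test of the difference either (3 at an unadjusted p under 0.05).

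Neighbouring gene groups place the set within its pathway, where 36.6% of all tested genes rose and 33.2% fell in PRA, and 36.2% and 32.9% in PRB. The other ribosome biogenesis genes, 98 tested genes in 4 lists, had 88 that rose and 4 that fell in PRA, and 90 and 4 in PRB, with median changes of 0.73 and 0.74. The late maturation genes among them had 8 that rose and 1 that fell of 10 in PRA, and 9 and 1 in PRB, with Eif6, which keeps the subunits apart until the large one is mature, at 0.82 and 0.87. Genes for the ribosome's own proteins did not move in this way. Of 79 tested cytosolic ribosomal protein genes, 11 rose and 16 fell in PRA, and 9 rose and 8 fell in PRB, with medians of -0.04 and -0.03. Their many processed copies make single values uncertain. Among those that passed the test the largest rise was that of Rps15a, 0.74 in PRA and 0.49 in PRB.

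All 16 tested genes of translation initiation rose in both strains, where 36.6% of all tested genes rose in PRA and 36.2% in PRB. They are initiation factors and Eif4ebp1, whose protein binds and holds back Eif4e. Eif4e, which binds the mRNA cap, was at 1.53 in PRA and 1.44 in PRB. Of 16 other known MYC target genes 15 rose in each strain and none fell, led by Srm, spermidine synthase (2.40 and 2.41), and Nme1, a nucleoside diphosphate kinase (2.03 and 1.80). Eif4e is counted in both of these lists. Of 11 tested snoRNA host genes outside the set, 10 rose in PRA and 8 in PRB, with Snhg3 at 1.57 and 1.31. Eif4a1 of this list is also counted among the initiation genes, and Rpl13a among the ribosomal protein genes.

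The partners and relatives of MYC went both ways. Of 11 tested genes of the MYC network, 1 rose and 6 fell in PRA, where 33.2% of all tested genes fell, and 2 rose and 6 fell in PRB, where 32.9% of all genes fell. Mycn, a MYC paralogue, averaged 2.36 ± 0.393 FPKM in PRA with P4 and 14.7 ± 4.90 in PRA with oil, and 1.70 ± 0.644 in PRB with P4 and 13.6 ± 3.38 in PRB with oil (mean ± SD, n = 4), log2 changes of -2.18 and -2.43. Mxi1, which competes with MYC for MAX, changed by -1.97 in PRA and -1.62 in PRB. Mycl, another paralogue, differed between the strains, with -0.57 in PRA and -2.02 in PRB and a difference of -1.45 (adjusted p = 0.00353). Mlx, a partner in a parallel network, rose (0.79 and 1.06), and Max, the partner MYC needs to bind DNA, was at 0.03 in PRA (adjusted p = 0.67) and 0.16 in PRB (adjusted p = 0.0341).

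**Figure D5:**
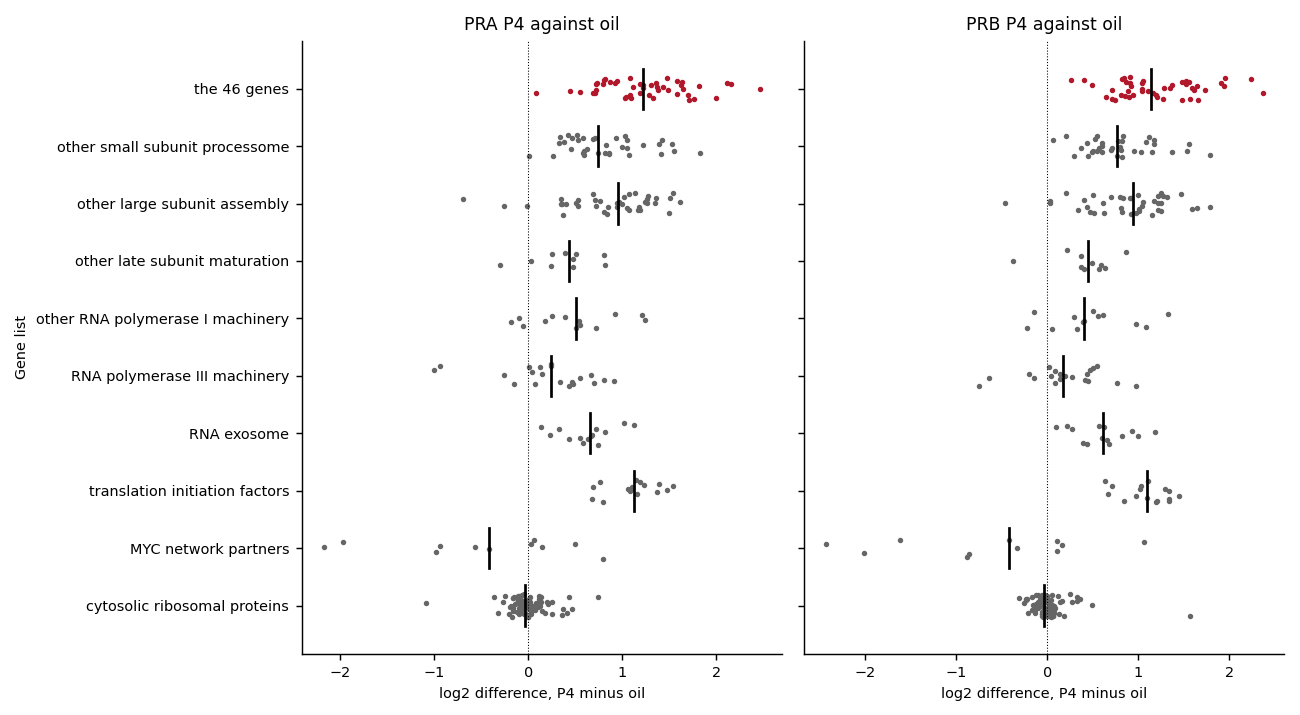
Log2 changes, P4 against oil, of the genes in each list, for PRA and PRB, with 1 point per tested gene and the list's median marked. The ribosome biogenesis lists lie mostly above 0 and the cytosolic ribosomal protein genes lie around 0, with medians of -0.04 in PRA and -0.03 in PRB.

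Some members share sequence with other genes, and their levels are less certain for it. A gene or pseudogene at least 90% identical over 300 bases or more was found in the annotation for 16 of the 46 genes, among them Npm1 with 8 such copies, Nop56 with 5, Wdr12 with 4 and Fbl and Rrs1 with 3 each. For 15 members an exon overlaps an exon of a gene on the opposite strand, and whether the authors' counting used strand is not given in the sources used here.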

How the data were processed

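RNA-seq of whole mouse uterus was deposited as FPKM per gene for 16 libraries in 4 groups of 4. TopHat2 2.0.4, Cufflinks 2.0.2, Cuffdiff and build mm10 are named in the submitters' processing notes, and the deposited FPKM values were made by the authors. The annotation, the filters and any use of strand were not stated in labels or headers. Raw counts were not used. FPKM is relative within a library, so a change in total RNA per cell is not seen.

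The values were taken as deposited, genes whose mean reached 1 FPKM across all 16 libraries were kept (15408), and log2(FPKM + 1) was fitted in all 16 libraries by limma 3.58.1 with an intensity trend (R 4.3.3). P-values were adjusted by Benjamini-Hochberg over all tested genes with a threshold of 0.05, and fits used no block for the replicate number. Depth was estimated from the densest cluster of low values, within a band set beforehand, of genes with single transcripts over 800 bases. Promoter windows are RefSeq's (GRCm38.p6), and gene positions are those of GENCODE on the same build. The members and gene lists were chosen with earlier results of these data known. All members may be named, values per library are given for Myc, 10 core genes and most of the 5 largest and 5 smallest changes per contrast (all are drawn in the heatmap), and outside the set the 2 largest and 2 smallest called changes per list and the marker genes are named. Alternatives were other pseudocounts, filters, scalings, sample sets and each library left out in turn.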

Additional observations from a re-analysis of the deposited data

Results flagged for a closer look

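A library was marked where its gap to the nearest of its group, over the range of the group's 4 libraries, passed Dixon's 95% value. Of 192 groups of values examined (46 genes, their sum and their median, in 4 groups), 20 were marked, and chance marks about 1 in 20.

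In PRB with oil, replicate 4 was the highest library in all 7 marked values. The sum of the 46 genes was 1281 FPKM in replicate 4, with the other 3 at 1151 to 1162, and their median was 21.8 FPKM in replicate 4, with the other 3 at 17.9 to 18.3. Nop56 was at 57.6 FPKM in replicate 4, with the other 3 at 45.4 to 46.9, Nolc1 at 27.7 FPKM in replicate 4, with the other 3 at 23.1 to 23.5, and Grwd1 at 24.8 FPKM in replicate 4, with the other 3 at 20.3 to 20.9. Dkc1 was at 17.2 FPKM in replicate 4, with the other 3 at 15.4 to 15.6, and Nop10 at 69.4 FPKM in replicate 4, with the other 3 at 62.4 to 63.2. Without that library the median change with P4 in PRB was 1.18, and 46 genes still passed.

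In PRA with oil, Imp3 was at 97.9 FPKM in replicate 3, with the other 3 at 82.6 to 83.3. In the same group Nop10 was at 58.3 FPKM in replicate 1, with the other 3 at 66.8 to 68.2, and Noc4l at 10.1 FPKM in replicate 1, with the other 3 at 13.1 to 13.7.

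In PRA with P4, the median of the 46 genes was 44.9 FPKM in replicate 1, with the other 3 at 46.9 to 47.3. Nhp2 was at 92.4 FPKM in replicate 1, with the other 3 at 101 to 102, and Pno1 at 52.3 FPKM in replicate 1, with the other 3 at 57.8 to 58.1. Rrs1 was at 110.1 FPKM in replicate 3, with the other 3 at 99.4 to 100.5, Nop2 at 58.2 FPKM in replicate 3, with the other 3 at 52.1 to 52.8, Wdr43 at 57.5 FPKM in replicate 2, with the other 3 at 55.0 to 55.4, and Ppan at 21.4 FPKM in replicate 4, with the other 3 at 23.7 to 24.1.

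In PRB with P4, Ddx21 was at 104 FPKM in replicate 4, with the other 3 at 91.5 to 92.0, Mybbp1a at 108 FPKM in replicate 4, with the other 3 at 96.9 to 98.5, and Nip7 at 30.3 FPKM in replicate 3, with the other 3 at 34.7 to 35.3.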

How the results depend on the processing

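The rise of the set with P4 kept its direction and its calls under nearly all settings tried. In PRA 45 or 46 of the 46 genes rose when any single library was left out, and in PRB all 46 did. A minimum mean of 5 FPKM left 45 genes to test. Median changes with equal total FPKM were 1.05 in PRA and 0.96 in PRB. Quantile normalization called 1 gene lower in PRA, Imp3, at -0.16 (adjusted p = 0.00889). In PRB, Imp3 turned to -0.022 under quantile normalization (adjusted p = 0.718) and was at 0.07 with equal totals (adjusted p = 0.213). For PRB against PRA with P4, the count of 1 higher and 0 lower became 2 higher with median-ratio scaling, and 2 lower with quantile normalization and 2 lower with equal totals. Over all tested genes there were 1390 higher and 1108 lower of 15401 with median-ratio scaling. There were 1096 and 1066 of 15408 with quantile normalization, and 1040 and 1454 of 15420 with equal totals. With single libraries left out there were 1 to 3 higher and 0 to 4 lower, while 725 to 1315 of all tested genes were higher and 687 to 1300 lower. With the replicate number as a block there were 2 higher and 5 lower, and of all 15408 tested genes 1214 were higher and 1355 lower. The counts of members called with P4 did not change with that block. The labels give the groups the same replicate numbers, but same-numbered libraries correlated at -0.23 to 0.31 and not every library correlated best with its own number, so the numbers were not taken as pairs. Depth was estimated from the values within a band set beforehand, so its effect on these levels was not settled.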

Other observations

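Other lists of genes around the ribosome differed in how they moved with P4. Over all tested genes 36.6% rose and 33.2% fell in PRA, and 36.2% and 32.9% in PRB. All 14 tested genes of the RNA exosome, which trims ribosomal RNA precursors, rose in PRA and 13 rose in PRB, led by Exosc6 (1.12 in PRA and 1.19 in PRB). All 11 tested nuclear transport genes rose in PRA and 10 in PRB, with the nuclear pore protein Nup93 at 1.78 and 1.84. RNA polymerase III, which makes 5S RNA and transfer RNA, had 12 genes that rose and 4 that fell of 20 in PRA, and 10 and 4 in PRB. In either direction 69.8% of all tested genes passed in PRA and 69.1% in PRB. The polymerase III calls in PRB were near that share. Maf1, the repressor of RNA polymerase III, fell by 1.01 in PRA and by 0.75 in PRB on the log2 scale. Its subunits went both ways, as Polr3d rose (0.91 and 0.97) and Polr3gl fell (-0.94 and -0.64).

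Of 10 tested genes of p53 and nucleolar stress, 7 rose and 2 fell in PRA, and 7 rose and 3 fell in PRB. For all tested genes the shares were 36.6% that rose and 33.2% that fell in PRA, and 36.2% and 32.9% in PRB. Sesn2, a stress-induced inhibitor of the growth kinase mTORC1, averaged 21.2 ± 1.07 FPKM in PRA with P4 and 3.75 ± 0.487 in PRA with oil, and 24.2 ± 3.11 in PRB with P4 and 4.03 ± 0.558 in PRB with oil (mean ± SD, n = 4), log2 changes of 2.23 and 2.32. Its relative Sesn1 changed by -1.06 and -0.40. The cell cycle inhibitor Cdkn1a rose (1.64 and 2.06), and Bbc3, a promoter of cell death, was at -0.77 and -0.71.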
